A study of Mus musculus with 4 samples.

Results

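The polyamine synthesis and control genes were examined in laser-captured crypts of the mouse intestine, in control mice and in mice with the beta-catenin gene deleted. The list held 9 genes, namely Odc1, Amd1, Srm, Sms, Sat1, Oaz1, Oaz2, Azin1 and Smox, and a probe set was taken for a gene only where the platform annotation named that gene and no other. By this rule 7 of the 9 genes had a probe set, with 14 probe sets in all, out of 34945 probe sets with 1 symbol on the array. Amd1 had no such probe set. The 3 probe sets that name Sms also name its pseudogene, so neither gene was measured here.

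Polyamines are small, positively charged molecules that bind nucleic acids and are needed for growth. Ornithine decarboxylase (Odc1) makes putrescine, and spermidine synthase (Srm) and spermine synthase (Sms) lengthen it with groups that the decarboxylase Amd1 provides. Antizymes (Oaz1 and Oaz2) bind ornithine decarboxylase and send it to the proteasome, the antizyme inhibitor Azin1 takes antizyme out of action, and Sat1 and Smox lead the way back from spermine and spermidine. In the intestine, polyamine synthesis is known for its link to the division of crypt cells, and Odc1 is a classical target of the transcription factor Myc.

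Both groups were taken 2 days after induction, and each held 2 arrays. One group is labelled as control mice and the other as mutant mice in which beta-catenin was removed by tamoxifen, while no source used here gives the strain, the age, what drove the deletion or the deleted exons. Whether the control mice also received tamoxifen is likewise not given, and it is not stated that the 2 samples within a group are different animals, so p-values cover only the spread seen between samples, which may be technical. RNA of the captured crypts went through 2 rounds of amplification. In captured tissue, fewer cells of a type and less RNA per cell cannot be told apart.

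The arrays differed in ways that the groups do not account for. Deposited total signal lay between 9056029 and 12579670, and quantile normalization was applied to the log2 values for that reason. Mutant replicate 1 held high signal for pancreatic enzymes. The summed deposited intensity of the 11 measured acinar markers of 14 listed was 92221 in that array, against 1358 and 1573 in controls and 1025 in the other mutant array, and none of them was listed at 0. All 11 crypt and epithelial markers were kept by the filter, with summed intensities of 37647 and 45186 in controls against 48313 and 43583 in mutants. Bright genes such as Krt8 and Lyz1 set that sum, and the mean log2 signal of the same markers was 10.97 and 11 in controls against 10.74 and 10.7 in mutants. The stem cell markers Olfm4 and Lgr5 had both mutants below both controls on either scale, at -1.36 (SE 0.24, limma adjusted p = 0.767) and -1.04 (SE 0.44, limma adjusted p = 0.786), and their part in the polyamine values was not tested. Both mutants lay below both controls for 19.2% of all genes, and for 14.9% on the deposited intensities. The 11 crypt and epithelial markers split into 7 lower and 4 higher after normalization, and 4 lower and 7 higher as deposited. Ratios of 5' to 3' signal for beta-actin, a sign of RNA length, were 0.149 and 0.0945 on the arrays numbered 1 (control, then mutant) and 0.0567 and 0.0448 on those numbered 2. Ctnnb1 itself, by its brightest probe set, had deposited intensities of 4699.6 and 5997 in controls against 5229 and 3449 in mutants, which overlapped. After normalization the groups did not overlap and differed by -0.56 (SE 0.22, limma adjusted p = 0.786), and its 2 dimmer probe sets stood at 0.38 and -0.51. The labels do not tell whether these probes lie in the deleted part.

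The polyamine genes showed no common direction 2 days after beta-catenin deletion, and the split of signs changed with the scaling. Of the 7 measured genes, each represented by its brightest probe set, 4 had a lower mean in the mutants, against 49.3% of all genes, and 3 a higher one. Their median difference was -0.03 on the log2 scale, beside 0.01 over all 11395 genes tested. With the values as deposited 3 were lower and 4 higher, with a median of 0.21 beside 0.01 for all genes. With median centring 2 were lower, against 39.4% of all genes, and 5 higher, with a median of 0.33 beside 0.13. The median size of the difference, regardless of sign, was 0.31 for the 7 genes and also 0.31 for all genes tested. The counts were 4 lower and 3 higher without mutant replicate 1 or control replicate 1, 3 and 4 without control replicate 2, and 2 and 5 without mutant replicate 2, with medians from -0.02 to 0.04. A filter on dim signal kept 10 of the 14 probe sets, among them at least 1 for each of the 7 genes. None of the 10 passed the test (limma, adjusted p between 0.786 and 0.987), where 0% of all 22519 kept probe sets passed. At an unadjusted p under 0.05, 1 of the 10 would be called, an Odc1 probe set, against 6.28% of all kept probe sets. The number of calls was 0 for these genes under every alternative run. By genes, the mutant values lay below both controls for 1 of 7 (Odc1, by 1437711_x_at), against 19.2% of all genes. They lay above both controls for 2 of 7, against 18.9%. Over the 10 probe sets the groups did not overlap in 4, against 36.2% of all kept probe sets. On the deposited intensities the groups did not overlap in 1 of the 10, against 29.1%, and by genes the mutants lay below both controls for 0 of 7 and above both for 1 of 7, against 14.9% of all genes in either direction.

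**Figure D1:**
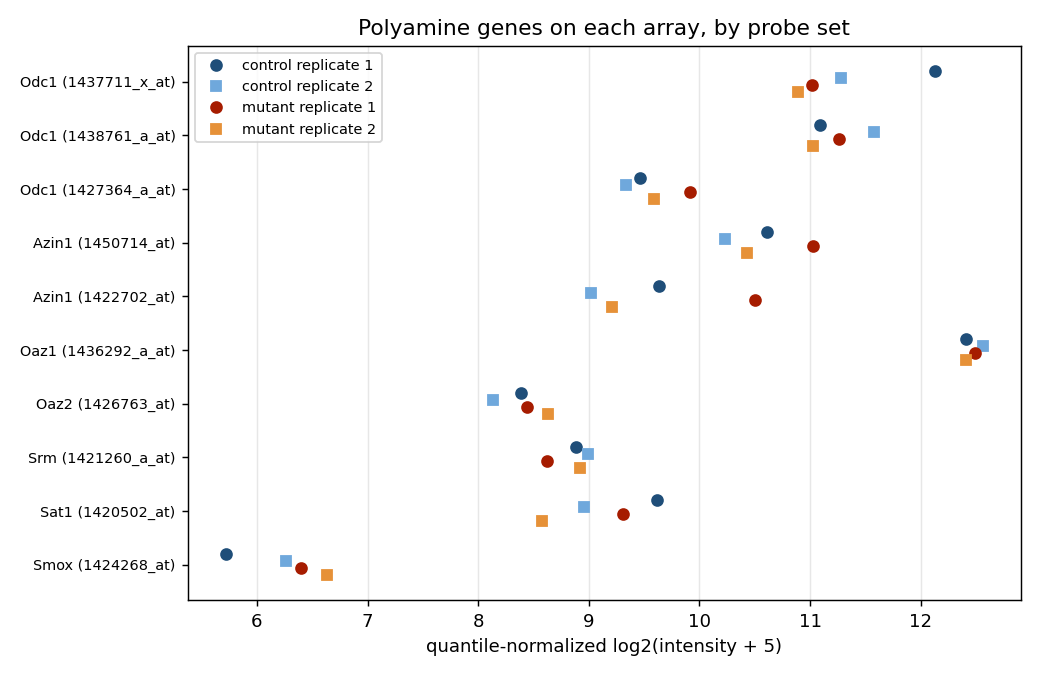
Each row is 1 kept probe set of a polyamine gene, and each point is 1 array, plotted by its quantile-normalized log2(intensity + 5). Blue points are the 2 control arrays and red and orange points the 2 mutant arrays. On this scale the groups overlap in 6 of the 10 rows and do not in 4, and the levels of different rows cannot be set against each other because probes differ in their response.

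Synthesis begins with ornithine decarboxylase, and the 3 kept probe sets of Odc1 disagreed in sign. Its brightest probe set (1437711_x_at) had deposited intensities of 3872 and 2390.2 in controls against 2668 and 1637 in mutants. After normalization the log2 signals were 12.13 and 11.28 in controls against 11.02 and 10.89 in mutants, with control replicate 1 well above the other 3 arrays and both mutants below both controls. The difference was -0.75 (SE 0.32, 95% interval -1.49 to -0.01 before any adjustment), which is 1.68-fold lower and did not pass (limma, adjusted p = 0.786). It stood at -0.32 without control replicate 1, at -1.18 without control replicate 2 and at -0.42 with median centring. The suffix of this probe set marks probes that can also bind other transcripts. It ranked as the brightest by mean log2 signal through control replicate 1 alone. On each of the other arrays the second probe set (1438761_a_at) was brighter, before and after normalization. The choice of representative and its difference therefore both leaned on control replicate 1.

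The second Odc1 probe set (1438761_a_at) gave deposited intensities of 1971 and 2963 in controls against 3177 and 1816 in mutants. Here the groups overlapped before and after normalization, and the difference was -0.19 (SE 0.28, 95% interval -0.83 to 0.45, limma adjusted p = 0.935). Its sign turned to 0.11 with median centring and 0.06 without control replicate 2. The third and dimmest of them (1427364_a_at) gave 646 and 632 in controls against 1254 and 645 in mutants. On the deposited scale only mutant replicate 1 stood out, while after normalization both mutants, at 9.91 and 9.59, lay above both controls, at 9.46 and 9.34. The difference was 0.35 (SE 0.31, 95% interval -0.37 to 1.07, limma adjusted p = 0.875). It stood at 0.19 without mutant replicate 1 and at 0.61 with median centring.

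Within each array the brightest and the dimmest Odc1 probe set can be subtracted, which takes out any scaling of the whole array. The deposited log2 value of 1437711_x_at minus that of 1427364_a_at was 2.58 and 1.92 in controls against 1.09 and 1.34 in mutants. This contrast, looked at after the signs were seen to disagree, differed by -1.04 between mutants and controls without overlap of the groups (exact two-sided permutation test, p = 0.333, the smallest that 2 against 2 arrays allow). The brightest minus the second (1438761_a_at) was 0.97 and -0.31 in controls against -0.25 and -0.15 in mutants, where the groups overlapped (exact permutation test, p = 1). The second minus the dimmest was 1.61 and 2.23 in controls against 1.34 and 1.49 in mutants, a difference of -0.50 without overlap (exact permutation test, p = 0.333). The signs of these contrasts follow from the differences given above. How often other pairs of probe sets fail to overlap was not computed. With the mean of all 3 probe sets the gene stood at -0.20, and with 1438761_a_at in its place at -0.19. No source used here gives the position of the probes along the transcript. The 5' to 3' ratio of beta-actin, at 0.0567 and 0.149 in controls against 0.0448 and 0.0945 in mutants, overlapped between the groups, and its part in the disagreement was not tested.

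**Figure D2:**
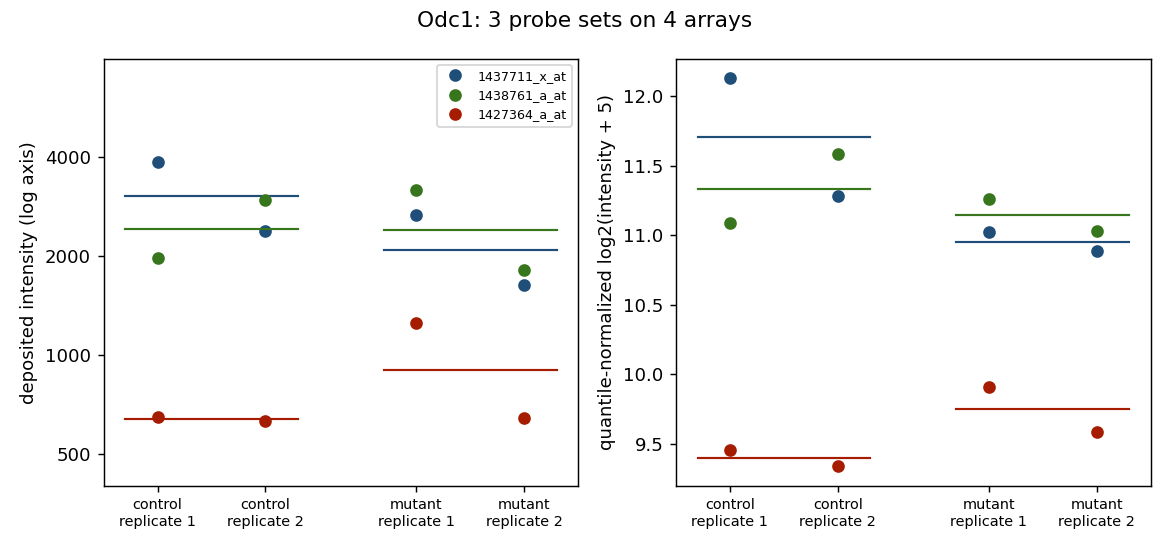
The 3 probe sets of Odc1 are plotted on each of the 4 arrays, as deposited intensities on a log axis (left) and as quantile-normalized log2(intensity + 5) (right), with horizontal lines at the geometric mean of the 2 deposited intensities (left) and the mean of the 2 log2 values (right). In the controls 1437711_x_at lies farther above 1427364_a_at than in the mutants, by 2.58 and 1.92 against 1.09 and 1.34 in deposited log2 units. This contrast was looked at after the signs were seen to disagree.

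The sequence before the start of Odc1 is given because beta-catenin acts through TCF factors bound to DNA and because Odc1 is known as a Myc target. That of Oaz2 is given because it is the 1 window among the measured genes with a match to a TCF core. RefSeq windows of 250 bases before a transcript start (GRCm38.p6) were found for 5 of the 7 measured genes (Odc1, Oaz1, Oaz2, Sat1 and Smox) and searched on both strands. The letters CACGTG (the E-box bound by Myc) were in 0 of the 5 windows, against 6.02% of 32851 windows in the table. CTTTGA was in 0 of 5 against 13.8%, and CTTTGT, which like CTTTGA is a core read by TCF factors, in 1 of 5 (Oaz2) against 16.5%. The GC box GGGCGG was in 4 of 5 (all but Oaz1) against 32.7%, and the TATA letters TATAAA in 0 of 5 against 12.4%. A match is a description of letters and not a bound site, and a missing match speaks only of this window. In the runs below, both on the plus strand and read 5′ to 3′, capitals mark CTTTGT and the GC box on either strand. The Odc1 run, at chr12:17544623-17544807, stops before the first annotated base of the gene and holds 185 bases with 3 GC boxes. The Oaz2 run, at chr9:65676298-65676547, holds 250 bases with 3 GC boxes and 1 CTTTGT.
Odc1: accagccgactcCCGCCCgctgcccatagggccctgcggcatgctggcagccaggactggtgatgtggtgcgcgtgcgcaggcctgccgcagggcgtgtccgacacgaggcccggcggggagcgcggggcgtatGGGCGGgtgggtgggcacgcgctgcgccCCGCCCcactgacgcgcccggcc
Oaz2: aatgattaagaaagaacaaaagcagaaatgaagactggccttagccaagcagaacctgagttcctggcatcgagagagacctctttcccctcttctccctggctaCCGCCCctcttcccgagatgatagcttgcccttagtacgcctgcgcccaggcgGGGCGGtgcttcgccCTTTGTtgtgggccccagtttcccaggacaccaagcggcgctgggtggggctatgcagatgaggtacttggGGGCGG

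Srm encodes spermidine synthase, the next enzyme that was measured. Its probe set (1421260_a_at) had deposited intensities of 439.6 and 498 in controls against 502 and 391 in mutants, so the groups overlapped. The normalized log2 signals were 8.93 ± 0.08 (SD, n = 2) for controls against 8.77 ± 0.21 (SD, n = 2) for mutants. The difference of -0.16 (SE 0.33) had a 95% interval from -0.92 to 0.59 and did not pass (limma, adjusted p = 0.956). It stood at 0.04 with median centring, at -0.01 without mutant replicate 1 and at -0.31 without mutant replicate 2.

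Of the proteins that control ornithine decarboxylase, Oaz1, the main antizyme, had closely spaced values. Deposited intensities of 1436292_a_at were 4609.8 and 5972 in controls against 6925 and 5340.1 in mutants. The log2 signals were 12.49 ± 0.11 (SD, n = 2) for controls against 12.45 ± 0.05 (SD, n = 2) for mutants, with overlapping groups. The difference was -0.03 (SE 0.21), with a 95% interval from -0.52 to 0.45 (limma, adjusted p = 0.987). The sign depended on the scaling, with 0.21 for the values as deposited, 0.33 with median centring and 0.14 with equal trimmed means. A further probe set is shared with an Oaz1 pseudogene in the annotation and was not used.

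Oaz2, the second antizyme, was represented by 1426763_at, with deposited intensities of 319 and 277 in controls against 436 and 315 in mutants. As deposited the groups overlapped, since mutant replicate 2 lay just under control replicate 1. After normalization the mutants, at 8.44 and 8.63, lay above the controls, at 8.39 and 8.13, by a margin smaller than the spread within either group. The difference was 0.27 (SE 0.34, 95% interval -0.50 to 1.05, limma adjusted p = 0.915). It stood at 0.15 without control replicate 2, 0.18 without mutant replicate 2 and 0.43 with median centring. Among its dim probe sets, both left out by the filter and therefore not tested, 1442541_at read 7.81 and 18.9 in controls against 32.1 and 32 in mutants, and 1426764_at read 28.6 and 20.5 in controls against 22.8 and 18.2 in mutants. They differed by 1.19 and -0.09 on the log2 scale, in opposite directions.

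Azin1, the antizyme inhibitor, was high in a single mutant array. Its brightest probe set (1450714_at) had deposited intensities of 1426 and 1179 in controls against 2685 and 1171 in mutants. The probe set 1422702_at showed the same order of arrays, with 726 and 507 in controls against 1911 and 484 in mutants. In both, mutant replicate 1 stood alone and mutant replicate 2 was below both controls on the deposited scale. The differences were 0.31 (SE 0.32, 95% interval -0.42 to 1.05) and 0.53 (SE 0.46, 95% interval -0.52 to 1.58), with limma adjusted p = 0.893 and adjusted p = 0.870. Without mutant replicate 1, the array with pancreatic enzyme transcripts, they stood at 0.02 and -0.11. Without mutant replicate 2 they stood at 0.61 and 1.17, without control replicate 1 at 0.50 and 0.83, and without control replicate 2 at 0.12 and 0.23. The summed acinar signal of 92221 in mutant replicate 1 moved with this result, and its part in it was not tested. The third probe set (1430984_at) was under the filter, at 13.6 and 1.85 in controls against 6.78 and 0.439 in mutants.

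Catabolic enzymes were represented by Sat1 and Smox, whose mean differences had opposite signs. Sat1 encodes the spermidine and spermine acetyltransferase, which tags polyamines for export or breakdown. Deposited intensities of its probe set (1420502_at) were 724 and 488 in controls against 834 and 303 in mutants, with replicate 1 above replicate 2 in both groups. The normalized signals were 9.62 and 8.96 in controls against 9.31 and 8.58 in mutants, and the groups overlapped. The difference was -0.35 (SE 0.40, 95% interval -1.26 to 0.56, limma adjusted p = 0.908). It stood at -0.02 without control replicate 1, -0.68 without control replicate 2, -0.71 without mutant replicate 1, 0.02 without mutant replicate 2 and -0.12 with median centring. The enterocyte markers, 9 measured of 10 listed with none at 0, had the same order of replicates, with mean log2 signals of 11.31 and 10.23 in controls against 11.43 and 10.25 in mutants. Their summed intensities were 34271 and 23552 in controls against 52813 and 29271 in mutants, and their part in the Sat1 values was not tested. Leukocyte markers had this order of replicates too, with mean log2 signals of 7.06 and 6.11 in controls against 7.39 and 6.36 in mutants. So did the beta-actin ratio, and the part of either was not tested.

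Smox, the spermine oxidase gene, was the 1 gene of the 7 whose representative values did not overlap between the groups on both scales. The share of all genes that meet this on both scales was not computed. On the deposited intensities alone, 14.9% of all genes had both mutants above both controls, so 1 of 7 is near that share. Deposited intensities of 1424268_at were 56.8 and 68.8 in controls against 93.9 and 74.3 in mutants. The normalized log2 signals were 5.72 and 6.26 in controls against 6.40 and 6.63 in mutants. The difference was 0.52 (SE 0.38, 1.44-fold higher, 95% interval -0.35 to 1.40) and did not pass (limma, adjusted p = 0.856). It was 0.64 without mutant replicate 1, 0.25 without control replicate 1, 0.80 without control replicate 2 and 0.32 with equal trimmed means. This is dim signal, for which the sum with a pseudocount of 5 understates fold changes. The other Smox probe set (1446509_at), left out by the filter, read 18.8 and 18.6 in controls against 25 and 12 in mutants and did not separate the groups.

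**Figure D3:**
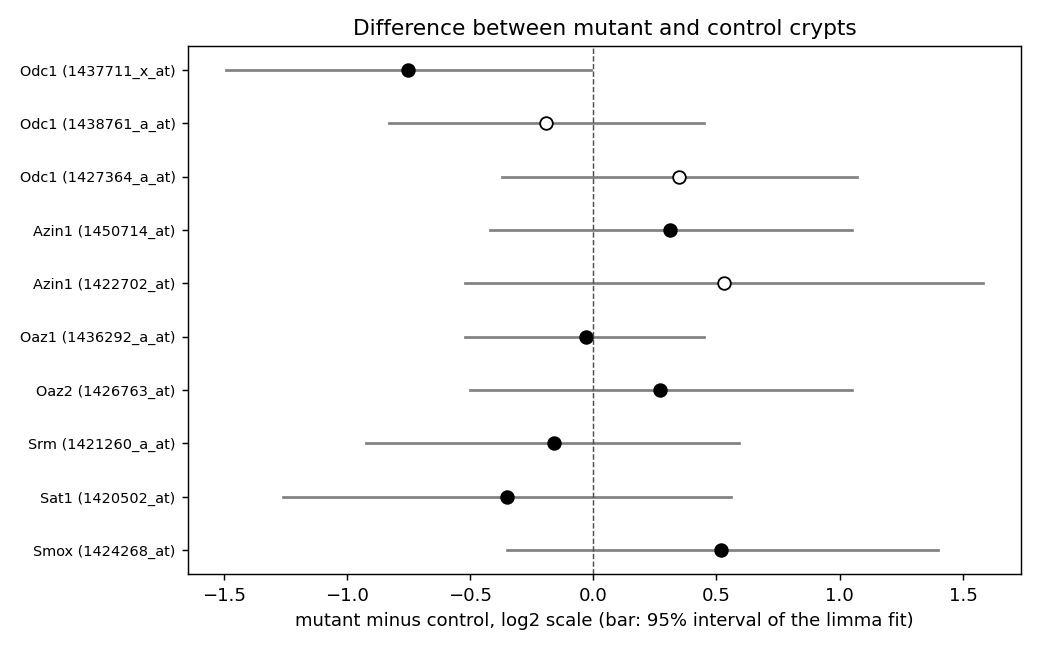
Each row is 1 kept probe set, with the mutant minus control difference on the log2 scale as a point and its 95% interval from the limma fit, before any adjustment, as a bar. Filled points are the probe sets that represent a gene, and open points are its others. The interval of 1 Odc1 probe set ends just below 0, at -0.01, and the other 9 intervals include 0.

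Genes around the pathway were read from 6 lists that name 53 genes, of which 48 had a probe set and 40 were kept. In all, 24 of the 40 had a lower mean and 16 a higher one in the mutants, with a median of -0.04 beside 0.01 over all genes tested. The split was 18 lower and 22 higher with the values as deposited and 14 and 26 with median centring. Under these settings 48.9% and 39.4% of all genes were lower. The mutants lay below both controls for 7 and above both for 5, against 19.2% and 18.9% of all genes, and on the deposited intensities for 3 and 6, against 14.9% either way. None passed the test (limma, lowest adjusted p = 0.771), and 4 of the 40 had an unadjusted p under 0.05, against 6.28% of all kept probe sets. The first count is by gene and the second share by probe set, and the share over all genes was not computed.

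The arginine and ornithine supply, which feeds ornithine decarboxylase, gave 7 lower and 4 higher of 11 kept genes, with a median of -0.10. As deposited and with median centring the split was 4 lower and 7 higher, and without mutant replicate 1 it was 8 and 3, with a median of -0.26. Cps1, the mitochondrial synthase that makes carbamoyl phosphate, had deposited intensities of 5431 and 7408 in controls against 6519 and 3815 in mutants. The groups overlapped as deposited and not after normalization, where the difference was -0.57 (SE 0.23, limma adjusted p = 0.786). Cps1 stood at -0.35 as deposited and at -0.23 with median centring. Agmat, which is named for agmatine hydrolysis, stood at 395 and 559.7 in controls against 357 and 242 in mutants, a difference of -0.73 (SE 0.35) with both mutants below both controls on either scale. Aldh18a1, which makes the precursor of ornithine and proline, differed by -0.52 (SE 0.35). Its value was -0.94 without mutant replicate 1, -0.09 without mutant replicate 2, -0.26 without control replicate 2, -0.34 as deposited and -0.22 with median centring. The other kept Aldh18a1 probe sets were also lower, at -0.52 (1435855_x_at), -0.90 (1415836_at), -0.52 (1437620_x_at) and -0.70 (1437333_x_at). For 1415836_at and 1437333_x_at both mutants lay below both controls on either scale. For the representative probe set and 1435855_x_at the groups overlapped. Gatm, which transfers the amidino group of arginine to make a precursor of creatine, read 402 in mutant replicate 1 against 52 and 31.9 in the controls and 25.9 in mutant replicate 2. Its difference of 1.27 (SE 0.85) became -0.31 without mutant replicate 1 and 2.85 without mutant replicate 2 (limma, adjusted p = 0.0218), the array with pancreatic transcripts then being the only mutant.

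The methionine cycle and the salvage of methylthioadenosine, which supply and recover the aminopropyl donor, had a lower mean in 10 of 11 kept genes, against 49.3% of all genes, and a higher one in 1. The median was -0.29. The split was 9 and 2 as deposited, 7 and 4 with median centring, 7 and 4 without mutant replicate 2 and 8 and 3 without mutant replicate 1, with medians of -0.21, -0.09, -0.12 and -0.17. The mutants lay below both controls for 4 of the 11, against 19.2% of all genes. On the deposited intensities this held for 1 of the 11 (Mtrr, a methionine synthase reductase gene), against 14.9%. Ahcy, which hydrolyses S-adenosylhomocysteine, read 1410.1 and 2154 in controls against 1562 and 1221 in mutants, which overlapped, and its normalized difference was -0.49 (SE 0.30, limma adjusted p = 0.825). It stood at -0.23 without control replicate 2, -0.75 without control replicate 1 and -0.22 with median centring. The salvage enzyme genes Enoph1 and Mri1 differed by -0.37 (SE 0.30) and -0.41 (SE 0.37). Enoph1 stood at -0.17 without mutant replicate 1, -0.56 without mutant replicate 2, -0.21 as deposited and -0.09 with median centring, and Mri1 at -0.63 without mutant replicate 1 and -0.20 without mutant replicate 2. The other kept Enoph1 probe set (1423705_at) stood at -0.07 with overlapping groups. The other Mri1 probe set (1426549_at), left out by the filter, was higher in both mutants, at 3.5 and 2.66 in controls against 10.5 and 14.9 in mutants. Ahcyl2, a relative of Ahcy, was the 1 gene with a higher mean, at 0.46 (SE 0.31), and stood at 0.15 without control replicate 2, 0.76 without control replicate 1 and 0.74 with median centring.

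Among other polyamine enzymes and antizyme relatives, 3 of 7 listed genes were kept, all with a higher mean and a median of 0.78. Over all genes 49.3% had a lower mean. The dim probe sets of Oaz3, left out by the filter, went both ways, from -1.30 (1453115_at) to 0.99 (1432571_at). Aoc1, the diamine oxidase that degrades putrescine and histamine, is known from mature intestinal epithelium. It had deposited intensities of 640.1 and 672 in controls against 1483 and 1092 in mutants, and both mutants lay above both controls. The normalized signals were 9.45 and 9.42 in controls against 10.16 and 10.33 in mutants, a difference of 0.81 (SE 0.30, limma adjusted p = 0.771). With 1 array left out in turn, Aoc1 stood between 0.72 and 0.90. Azin2, a second antizyme inhibitor, differed by 0.78 (SE 0.44), or 0.50 without control replicate 2. Sat2, a relative of Sat1, differed by 0.39 (SE 0.48), or -0.04 without control replicate 2. Both had dim signal.

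Transport genes gave 3 lower and 5 higher of 8 kept, with a median of 0.20. With median centring the split was 0 lower and 8 higher, where Atp13a3 was counted as higher at a rounded 0.00. In that setting the list had a median of 0.34, while 39.4% of all genes were lower and their median was 0.13. Slc3a2, the heavy chain shared by several amino acid transporters, read 552 and 597 in controls against 1389 and 847 in mutants. The normalized difference of 0.78 (SE 0.30) did not pass (limma, adjusted p = 0.786), although the values kept both mutants above both controls. The cation exporter gene Slc47a1 differed by 0.90 (SE 0.61) with overlapping groups, and by 1.94 and -0.13 without control replicate 1 and control replicate 2. Atp13a3, of the family of polyamine-transporting ATPases, differed by -0.29 (SE 0.29). It stood at -0.09 without mutant replicate 1, -0.16 without control replicate 2, -0.12 as deposited and 0.00 with median centring. The other kept Atp13a3 probe set (1442145_at) had the opposite sign, at 0.44, with both mutants above both controls on either scale. Slc12a8 differed by 0.32 (SE 0.37), or 0.08 without control replicate 1, 0.57 without control replicate 2 and 0.18 without mutant replicate 2.

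In the hypusine pathway, which uses spermidine to modify the translation factor eIF5A, 1 gene was lower and 2 were higher of 3 kept. All 3 representative probe sets overlapped between the groups. Eif5a read 5686 and 7564 in controls against 8389 and 7296 in mutants, and its normalized difference was -0.02 (SE 0.20, limma adjusted p = 0.992). The sign of the Eif5a value turned to 0.25 as deposited and 0.37 with median centring. The modifying enzyme genes Dhps and Dohh differed by 0.05 (SE 0.36) and 0.24 (SE 0.39), and Dohh by -0.17 without control replicate 1 and 0.64 without control replicate 2. The other kept Dohh probe set (1436402_at), at dim signal, stood at -0.35, with both mutants below both controls on either scale.

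The Myc genes, listed beside Odc1 for the known link between them, gave 3 lower and 1 higher of 4 kept, with a median of -0.34. This median turned to 0.10 without mutant replicate 1 and to 0.01 without control replicate 2. Myc read 161 and 172 in controls against 111 and 99.8 in mutants, so both mutants were below both controls, and its normalized difference was -0.56 (SE 0.36, limma adjusted p = 0.829), or -0.34 without mutant replicate 1. Max, the partner of Myc on DNA, read 40.7 and 64.9 in controls against 126 and 81.1 in mutants, a difference of 1.06 (SE 0.43, limma adjusted p = 0.786). Both mutants were above both controls for Max on either scale. The size of the Max value depended on which control was used, at 1.54 with control replicate 1 as the only control and 0.57 with control replicate 2. Mycl and Mycn differed by -0.55 (SE 0.46) and -0.14 (SE 0.49) with overlapping groups.

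**Figure D4:**
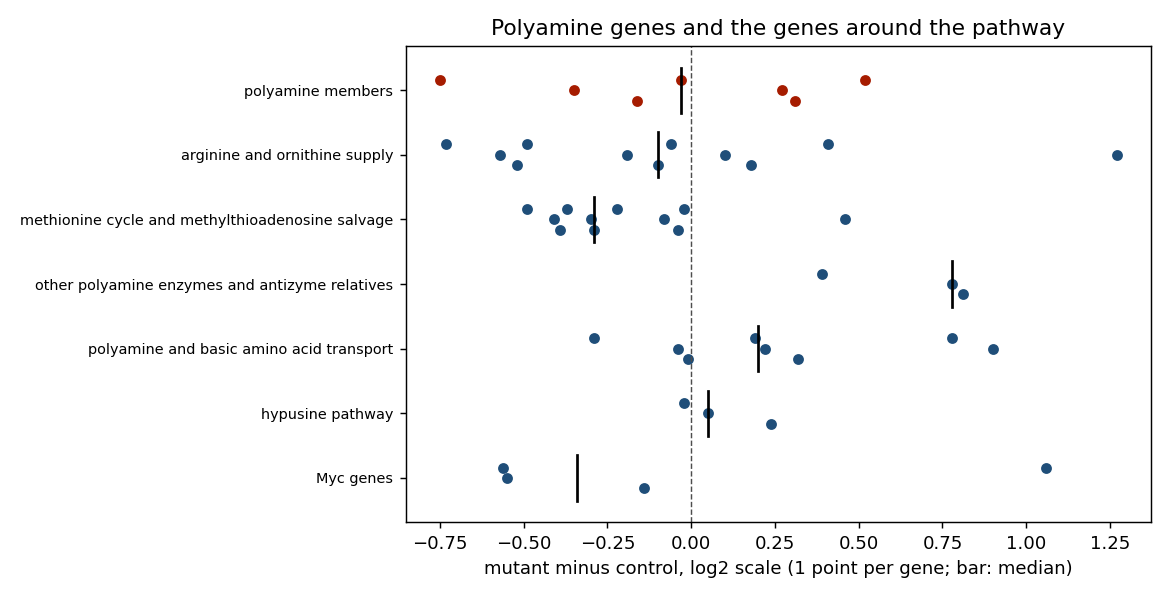
Each point is 1 kept gene, by the mutant minus control difference of its representative probe set on the log2 scale, and the short vertical bar is the median of its list. The 7 polyamine genes (red) spread from -0.75 to 0.52 around a median of -0.03. The point at 1.27 in the arginine and ornithine list is Gatm, whose high value came from mutant replicate 1.

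Over the 4 arrays, the genes with a profile most like that of Odc1 (1437711_x_at) were Dlg5, 4833447I15Rik and Cphx3. Likeness was the root mean square difference between log2 profiles centred on their own means, which was 0.0429, 0.0453 and 0.0473 for the 3 genes. A difference under 0.3 was met by 670 of 11388 genes, or 5.88%, so that many genes share this shape over so few arrays.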

How the data were processed

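The authors deposited 1 linear intensity per probe set and array, computed with MAS5 per the submitters' processing notes. No source used here gives its version or scaling target. Of 45101 probe sets, 64 controls were left out. Values were taken as log2(intensity + 5) and quantile-normalized, because 2% trimmed means differed between arrays by up to 1.53-fold. Probe sets at or above the 50th percentile of mean signal (4.79) were kept, 22519 in all. limma 3.58.1 (R 4.3.3; lmFit and eBayes with an intensity trend, 2 residual and 6.4 prior degrees of freedom) compared the 2 mutant with the 2 control arrays, in a two-sided test adjusted by Benjamini-Hochberg across the kept probe sets. Intervals are at 95% and unadjusted. The pipeline was tested on simulated data. Array number limits precision, and counting depth does not apply.

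A gene was represented by its brightest kept probe set. All 9 members, up to 4 genes of each neighbouring list by smallest p and the 3 nearest profiles to Odc1 are named. Members and lists were chosen with earlier results of these data known.

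Alternatives covered scaling, pseudocount, filter, trend, robust estimation, a replicate block, each array left out, and the choice of probe set. Equal trimmed means, counts on deposited intensities, probe set contrasts and promoter motifs were added after seeing the data. Marker lists of leukocytes, fibroblasts, smooth muscle and endothelium gave summed intensities of 1127 to 5451, 1586 to 2892, 1159 to 2339.9 and 124 to 160.4 over the 4 arrays.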

Additional observations from a re-analysis of the deposited data

How the results depend on the processing

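The number of polyamine probe sets past the test was 0 under all alternatives run, while the median difference over the 7 genes depended on the scaling. It was -0.03 as reported, 0.21 as deposited, 0.33 with median centring and 0.14 with equal trimmed means, beside medians over all genes of 0.01, 0.01, 0.13 and -0.06. The spread of this median between replicates, with each gene centred on its own mean, was an SD of 0.06, and the cause of the shifts was not tested. With 1 array left out in turn the median lay between -0.02 and 0.04. Calls over all probe sets, 0 as reported, were 2 with the values as deposited and 102 (21 lower and 81 higher) with median centring; the cause was not tested. The replicate number was also tried as a replicate block. It gave 1 call over all probe sets and changed no call for the genes named. The labels give same-numbered arrays only a number in common, and the correlation of their deviations over kept probe sets was 0.0339. On the arrays numbered 1, the beta-actin ratio and the mean enterocyte and leukocyte marker signals were higher in both groups, and the mean fibroblast signal lower. With 1 array left out, where the lone array is assumed to vary like the others, calls ranged from 0 to 90 over all probe sets (21 without mutant replicate 1, 90 without mutant replicate 2) and from 0 to 1 over the neighbouring lists (Gatm, without mutant replicate 2).

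Signs turned for Oaz1 (0.21 as deposited, 0.33 with median centring, 0.14 with equal trimmed means), Eif5a (0.25, 0.37 and 0.18 in the same order), Odc1 1438761_a_at (0.11) and Srm (0.04) with median centring, Atp13a3 (0.00) with median centring and Dhps (-0.05) with equal trimmed means. With an array left out, signs also turned within these ranges: Oaz1 -0.11 to 0.04, Odc1 1438761_a_at -0.43 to 0.06, Azin1 1422702_at -0.11 to 1.17, Sat1 -0.71 to 0.02, Eif5a -0.06 to 0.02, Dohh -0.17 to 0.64, Dhps -0.20 to 0.30, Slc47a1 -0.13 to 1.94, Mycl -1.13 to 0.04, Mycn -0.84 to 0.55, Gatm -0.31 to 2.85 and Sat2 -0.04 to 0.82. MAS5 detection calls were not used here, so how far dim probe sets lie above background is unknown.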
